A study of Mus musculus with 104 samples.

Results

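Among the autosomal CpGs of the time-course liver RRBS table, 2183 gained at least 30 percentage points of DNA methylation between birth and weaning age. They are 3.21% of the 68076 CpGs that could have been chosen, out of 69756 autosomal CpGs in the table. A CpG was chosen when its mean over the P15 and P20 libraries exceeded its mean over the E18.5 and P1 libraries by 30 points or more, with at least 5 values on each side. The levels at these 4 ages in liver therefore chose the CpGs and are given below without a test, whereas P5 and P10 in liver, and all ages in muscle and heart, played no part in the choice. A loss of the same size was seen at 846 CpGs.

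The samples were liver, muscle and heart of C57BL/6 mice (C57BL/6J in the study's methods) kept under standard conditions. E denotes embryonic and P postnatal day. The 23 liver libraries comprised 4 each from E18.5, P1 and P5, 3 each from P10 and P15, and 5 from P20. Muscle had 24 (4, 5, 3, 4, 4 and 4, in the same order), and the 18 heart libraries comprised 4 each from P1 and P5 and 5 each from P15 and P20. RRBS (reduced representation bisulfite sequencing) reads methylation at CpGs in fragments cut by a restriction enzyme, and each value is the percentage of reads in which the CpG was methylated. Every library is from whole tissue, so a change in the share of a cell type and a change within cells cannot be told apart.

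DNA methylation is the addition of a methyl group to the cytosine of a CpG, which DNA methyltransferases write on unmethylated DNA and copy to the new strand at replication. Methylated regulatory DNA is usually silent. Around birth the mouse liver stops being a site of blood formation while hepatocytes multiply and take up their adult functions, so a change in the methylation of whole liver can come from either the cells or their proportions.

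The gaining CpGs were often found next to each other. Of the 6 runs with the most gaining CpGs, those in Plekhh3 and at Akap5 include untranslated bases and are not printed. Sequences from the other 4 are shown. These and the later sequences are the plus strand of NCBIM37 (mm9), 5′ to 3′, and in these 4 the gaining CpGs are in capitals. The first lies in an exon of Mn1, a transcriptional coregulator, and holds 10 of the 28 gaining CpGs of the run. The second is intergenic, over 61 kb from the nearest gene start (Ankrd33), and shows 9 of 14. The third is in an exon of Zfp316, a zinc finger gene, with 8 of 13 gaining CpGs, and the fourth is in an exon of Rps6ka4, a protein kinase gene, with 9 of 11.
Mn1, chr5:111848236-111848533: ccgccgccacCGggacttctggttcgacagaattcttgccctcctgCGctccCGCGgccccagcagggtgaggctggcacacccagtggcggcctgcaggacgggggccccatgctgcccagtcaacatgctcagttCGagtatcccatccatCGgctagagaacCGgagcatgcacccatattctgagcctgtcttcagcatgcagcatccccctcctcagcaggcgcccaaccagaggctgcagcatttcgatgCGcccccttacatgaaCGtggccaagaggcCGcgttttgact
intergenic, chr15:100884380-100884656: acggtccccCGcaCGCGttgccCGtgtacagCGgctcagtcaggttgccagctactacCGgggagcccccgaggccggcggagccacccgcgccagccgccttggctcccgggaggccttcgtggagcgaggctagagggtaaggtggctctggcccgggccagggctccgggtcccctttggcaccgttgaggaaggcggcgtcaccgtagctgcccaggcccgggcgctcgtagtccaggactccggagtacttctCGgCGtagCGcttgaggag
Zfp316, chr5:144016766-144016923: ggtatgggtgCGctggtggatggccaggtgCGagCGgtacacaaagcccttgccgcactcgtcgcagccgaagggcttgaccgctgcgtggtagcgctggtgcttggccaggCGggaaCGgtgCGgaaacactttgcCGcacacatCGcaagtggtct
Rps6ka4, chr19:6904855-6904920: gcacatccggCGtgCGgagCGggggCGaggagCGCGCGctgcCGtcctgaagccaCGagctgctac

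The next 2 sequences each have a gaining CpG in capitals. Both CpGs were picked, after their values were seen, from those that passed a test between P5 and P10 described below. The fit of that test included the libraries that chose the CpGs. The P5 and P10 means of both CpGs differed by over 45 points, as did those of other gaining CpGs not shown here. The first CpG lies in intergenic DNA nearest to Sh3bp1. The second lies in intergenic DNA nearest to Osmr, the oncostatin M receptor.
Sh3bp1, chr15:78728255-78728316: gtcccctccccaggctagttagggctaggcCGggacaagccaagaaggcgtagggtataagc
Osmr, chr15:6857011-6857072: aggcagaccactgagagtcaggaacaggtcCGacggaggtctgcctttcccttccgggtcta

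In liver the mean level of the gaining CpGs lay between 21.8% and 30.9% in the 4 libraries at E18.5 and between 29.0% and 33.9% in the 4 at P1. It lay between 63.5% and 70.4% in the 3 libraries at P15 and between 65.1% and 73.6% in the 5 at P20. The median gaining CpG started at 27.1% (interquartile range 15.9% to 42.9%), ended at 68.0% (54.6% to 80.9%) and rose by 35.7 points (32.4 to 41.3). The largest rise was 73.8 points, and 163 CpGs rose by 50 points or more. The median rise of all other CpGs that could have been chosen was 6.13 points. At the threshold, the nearest CpGs inside were in Sept9, Cdh4 and Chst1, with rises of 30.0022, 30.0031 and 30.0075 points, and the nearest outside rose by 29.9979, 29.9963 and 29.9858 points near Foxo6, near Gm10076 and in 1700029G01Rik.

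Libraries that chose the CpGs exaggerate the rise, so each of the 16 was also left out of the choice and read at the CpGs chosen without it. On a scale from the early mean (0%) to the late mean (100%) of the other libraries, the left-out early libraries stood at 6.97% ± 7.21 (SD, n = 8) and the left-out late libraries at 86.9% ± 7.91 (SD, n = 8). The lowest left-out late library, at 75.1%, lay far above the highest left-out early library, at 17.0%. The left-out P1 libraries averaged 11.4% ± 3.73 (SD, n = 4) and the left-out E18.5 libraries 2.57% ± 7.45 (SD, n = 4).

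At P5 the mean level of the gaining CpGs was 40.7%, 49.1%, 46.7% and 37.3% in replicates 1, 3, 4 and 5. At P10 it was 51.1%, 57.7% and 57.9% in replicates 1, 2 and 4. The lowest P10 library lay above the highest P5 library. Expressed as the share of the rise reached, P5 stood at 36.9% ± 14.2 (SD, n = 4; 20.5% to 51.7%) and P10 at 68.7% ± 10.1 (SD, n = 3; 57.1% to 74.8%). The P5 libraries that were low at the gaining CpGs were also lower elsewhere: the other CpGs averaged 54.6% and 53.5% in replicates 1 and 5 against 57.7% and 57.3% in replicates 3 and 4. Whether this difference between libraries has a part in the spread at P5 was not tested. The plot of levels by library shows these values with those of muscle and heart.

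**Figure D1:**
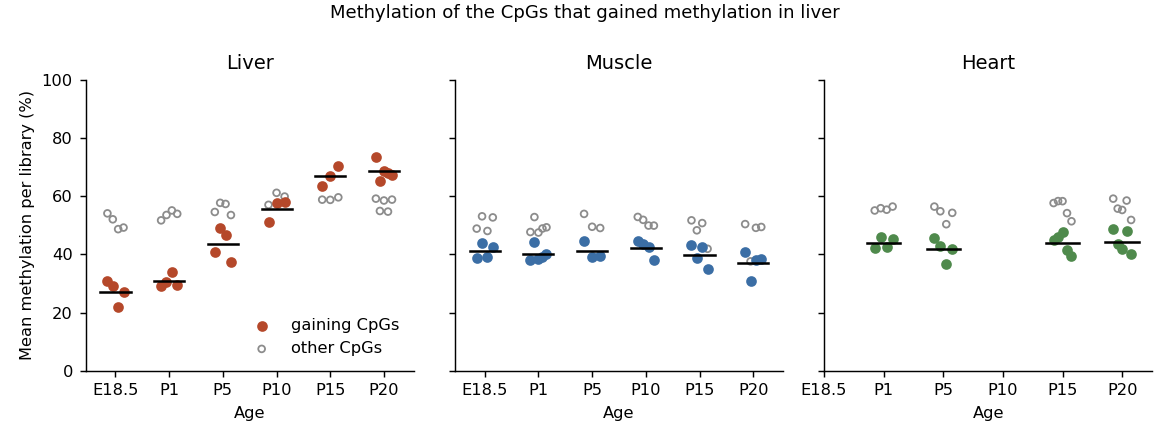
Mean methylation (%, vertical axis) by age in liver, muscle and heart. Each filled point is 1 library at the CpGs that gained methylation in liver, black bars are age means, and open grey points are the same libraries at all other CpGs that could have been chosen. Liver rises from between 21.8% and 30.9% at E18.5 to between 65.1% and 73.6% at P20, while muscle and heart libraries stay between 30.99% and 48.6%. The E18.5, P1, P15 and P20 liver libraries chose the CpGs.

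Whether single CpGs changed between P5 and P10 was tested with a moderated linear model (limma) at 69463 CpGs of the liver table, of which 2170 were gaining CpGs. No CpG passed a Benjamini-Hochberg adjusted p of 0.1 with a difference over 5 points (background 0%), and the smallest adjusted p was 0.436. The unmoderated model called 1 CpG, which was no gaining CpG. At an unadjusted p under 0.05, 402 gaining CpGs (18.53%) were higher at P10 against 6.52% of all CpGs, and 11 (0.507%) were lower against 1.35%. On the logit scale 244 gaining CpGs (11.2%) were higher, against 6.59% of all CpGs, and in the unmoderated model 265 (12.2%), against 5.33%. Among CpGs at 20% to 80% at P5 the shares were 17.6% (316 of 1796 gaining CpGs) and 9.86% (3281 of 33283). Every P10 value exceeded every P5 value at 318 gaining CpGs (14.7%; 7.09% of all CpGs), and every P10 value was below every P5 value at 8 (0.369%; 1.73%). The mean was higher at P10 at 1785 gaining CpGs (82.3%), compared with 64.6% of all CpGs. The median difference was 12.1 points (interquartile range 3.29 to 20.6) at gaining CpGs and 3.498 points over all CpGs.

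The early and late means chose the CpGs, so the first and last steps that follow are a description and are enlarged by the choice. The largest of the 3 steps was that from the early mean to P5 at 751 CpGs (34.4%), that from P5 to P10 at 776 (35.6%) and that from P10 to the late mean at 655 (30.02%), with median steps of 14.2, 12.04 and 11.05 points. All 3 steps were upward at 1334 of 2182 CpGs (61.1%). A single step still held at least 50% of the rise at 1674 CpGs (76.7%), although which step it was differed between CpGs. At P10, 1613 CpGs (73.9%) had made at least 50% of their rise, 345 (15.8%) stood at or above their late mean, and 32 (1.47%) had not left their early mean. The share of CpGs at 20% to 80% went from 65.0% early to 82.9% at P5, 79.7% at P10 and 73.2% late, so most gaining CpGs were partly methylated in whole liver at all these ages. Among all CpGs that could have been chosen it was 57.8%, 47.9%, 40.2% and 40.9%. The rule itself bars gaining CpGs from the highest levels early and the lowest late.

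A difference of at least 30 points between the P5 and P10 means was found at 182 of the 2170 gaining CpGs tested (8.39%), compared with 1.37% of all CpGs. When the spread was estimated from all 23 liver libraries, 19 of 69463 CpGs passed the test (0.0274%), 7 of them among the 2170 gaining CpGs (0.323%), and 6 of these are described here, chosen after their values were seen. This fit borrows its estimate of spread from the libraries that chose the CpGs, so the values are given without its p, and none of the 7 passed in the fit of the P5 and P10 libraries alone. The CpG nearest to Sh3bp1, at chr15:78728285 and 1812 bp from its start, had 30.4%, 27.3%, 27.3% and 14.8% at P5 and 76.2%, 96.0% and 91.3% at P10. Its early libraries had averaged 23.8% ± 8.402 (SD, n = 8) and its late libraries 77.4% ± 9.103 (SD, n = 6).

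Itgal encodes the alpha L integrin chain of leukocytes. Its CpG at chr7:134439999, in an exon 75 bp from the gene start, had 22.2%, 29.7%, 13.6% and 10.0% at P5 and 73.3%, 73.3% and 87.5% at P10. At Itgal all 3 P10 libraries lay above 70%, while its late libraries averaged 63.6% ± 18.4 (SD, n = 6). The other 4 CpGs described lay nearest to Zfp366, Gse1, Osmr and Pdlim5, and their means rose by 45.2 to 54.7 points between P5 and P10. Their P10 and late means were 91.6% and 78.4%, 88.6% and 83.1%, 79.3% and 66.8%, and 79.6% and 84.0%, in that order. Of the CpGs described, only that nearest to Pdlim5 had a P10 mean below its late mean.

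**Figure D2:**
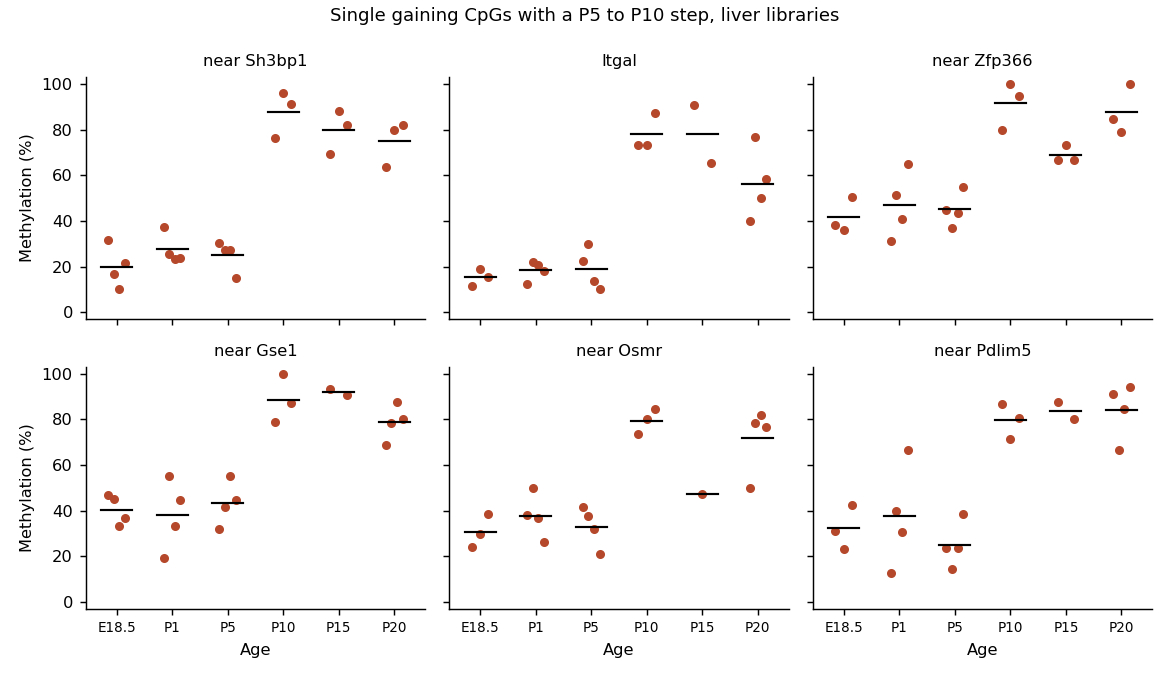
Methylation (%, vertical axis) by age in liver at 6 of the 7 single gaining CpGs that passed the P5 to P10 test in the fit of all 23 liver libraries. Points are libraries and black bars are age means. The CpG nearest to Sh3bp1 lies between 14.8% and 30.4% at P5 and between 76.2% and 96.0% at P10, and the one in Itgal between 10.0% and 29.7% and between 73.3% and 87.5%.

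The starting level covered a wide range. It was under 10% at 274 gaining CpGs, 10% to 20% at 489, 20% to 30% at 453, 30% to 40% at 324, 40% to 50% at 299, 50% to 60% at 259 and 60% to 70% at 85. Relative to the CpGs available at each level, gaining CpGs were most frequent at 20% to 30%, where they were 13.2% of 3426, and least frequent at 60% to 70%, where the rule leaves little room (0.889% of 9560). Of 10795 CpGs under 10%, 2.54% gained. The rule requires a late mean at least 30 points above the start, so the late median had to go up with the starting level. It was 42.3% for CpGs that started under 10% and 95.1% for those that started at 60% to 70%. The median rise was 35.7 points for a start under 10%, 38.4 for 20% to 30% and 31.5 for 60% to 70%.

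The starting level and the scale of the share both come from the libraries that chose the CpGs, so the shares by starting level are a description. The share of the rise reached at P5 was 29.1% ± 9.66 (SD, n = 4) for a start under 10% and 48.5% ± 13.4 (SD, n = 4) for a start of 50% to 60%. At P10 the shares were 57.1% ± 12.1 and 79.4% ± 8.31 (SD, n = 3 for both), and 73.5% ± 11.9 (SD, n = 3) for a start of 60% to 70%. For starts under 30% against 30% or more they were 33.5% and 41.6% at P5 and 64.0% and 75.3% at P10. The differences between starting levels were not tested.

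**Figure D3:**
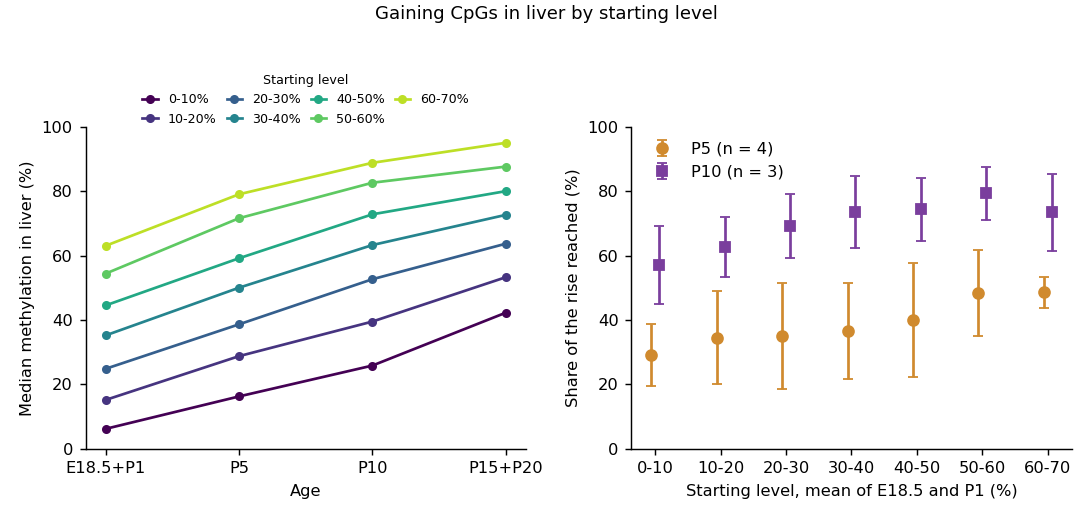
Left, median methylation in liver (%) of gaining CpGs grouped by starting level, at E18.5+P1, P5, P10 and P15+P20. Right, share of the rise (%) reached at P5 (circles, mean ± SD over 4 libraries) and P10 (squares, mean ± SD over 3 libraries) against starting level. At P10 the share is 57.1% for CpGs that started under 10%, 79.4% for those that started at 50% to 60% and 73.5% for those that started at 60% to 70%.

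The gaining CpGs lay on all 19 autosomes and made up from 2.10% of the eligible CpGs (chromosome 10) to 4.49% (chromosome 11). Within 100 bp of a gaining CpG another gaining CpG was found for 1071 (49.1%), whereas 2.27% of the other CpGs had one that near. RRBS measures CpGs in short fragments, so not every gaining CpG had a measured neighbour: of the 1682 that had one within 100 bp, 63.7% had a gaining one. Widening the distance to 1000 bp added little (53.6%). When gaining CpGs were joined at gaps of up to 500 bp they formed 1427 runs, of which 1024 held 1 CpG, 249 held 2 and 154 held 3 or more. The 154 runs contained 661 CpGs (30.3%).

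CpGs near a gaining CpG that missed the threshold also moved. The 1264 such CpGs within 50 bp had a median rise of 20.0 points, which dropped to 13.8 at 51 to 100 bp, 12.9 at 101 to 200 bp, 10.6 between there and 500 bp, and 6.24 from there to 1000 bp. At over 10000 bp it was 5.87 points. Between P5 and P10, ages that had no part in the choice, these neighbours differed by a median of 5.38 points within 50 bp, 4.796 at 101 to 200 bp and 0.567 from 500 to 1000 bp, compared with 3.21 at over 10000 bp. Neighbours in 1 fragment are read from the same molecules and are not independent. Both strands of a CpG were measured for 20 dinucleotides with a gaining CpG, and at 8 of them both strands gained. At the other 12 the second strand rose by at least 6.92 points (median 17.1).

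**Figure D4:**
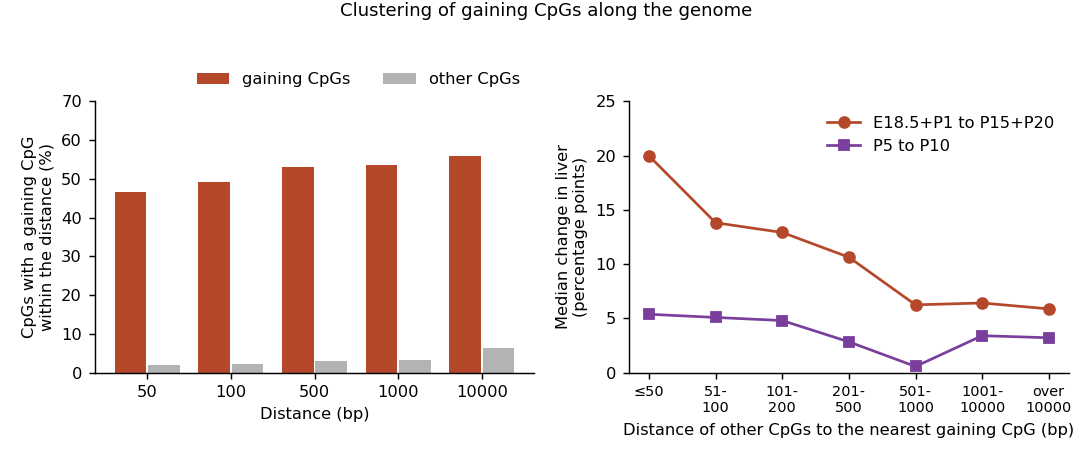
Left, percentage of gaining CpGs (red) and of other CpGs (grey) with a gaining CpG within a distance (bp). Right, median change in liver (percentage points) of CpGs that did not gain, by distance to the nearest gaining CpG, for the ages that chose the CpGs (circles) and for P5 to P10 (squares). Within 100 bp the percentages are 49.1% and 2.27%, and the median rise drops from 20.0 points within 50 bp to 5.87 points at over 10000 bp. The distance groups also differ in starting level.

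In the 6 runs with the most CpGs the means at P5 and P10 lay between the early and late means, but single libraries overlapped with the early range in some. Means over a run are over the CpGs with a value in a library, so libraries with missing values average fewer CpGs. The Mn1 run (chr5:111847853-111849120) held 28 gaining CpGs of 43 measured in an exon. Its early libraries ran from 13.4% to 19.8% (median 14.5%, n = 8) and its late libraries from 44.5% to 71.6% (median 54.6%, n = 8). At P5 it stood at 25.1%, 36.4%, 32.3% and 27.2%, and at P10 at 39.3%, 45.3% and 50.4%. Every P10 library was above every P5 library.

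Plekhh3 had a run (chr11:101025493-101025746) in which all 14 measured CpGs gained. They lie in an exon, 892 to 1145 bp from the gene start. The early libraries ran from 8.78% to 38.9% (median 20.7%, n = 8) and the 6 late libraries with a value from 73.6% to 89.5% (median 80.6%). At P5 the levels were 61.4%, 40.1%, 52.1% and 41.9%, above all early libraries, and at P10 they were 66.9%, 55.6% and 59.7%, which overlapped with P5. The intergenic run nearest to Ankrd33 (chr15:100884390-100884748, 14 of 15 CpGs) was at 12.2% to 19.7% early (median 15.04%, n = 8) and at 49.8% to 87.8% late (median 60.1%, n = 7). At P5 it stood at 24.2%, 16.5%, 21.2% and 25.7%. Its P10 libraries, at 35.3%, 50.2% and 19.5%, were the most scattered of the 6 runs, and the difference between P10 and P5 of 13.1 points was 20.8 without P10 replicate 4 and 5.49 without P10 replicate 2.

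The Zfp316 run (chr5:144016490-144016913, 13 of 14 CpGs) lay in an exon outside annotated untranslated regions, 2 to 425 bp from the nearest annotated transcript start. It went from an early median of 9.63% (3.75% to 16.1%, n = 8) to a late median of 59.4% (45.9% to 69.9%, n = 8). Its P5 libraries were at 36.2%, 51.6%, 45.0% and 11.7%, so that replicate 5 lay within the early range while replicate 3 lay within the late range. At P10 the run stood at 51.5%, 55.5% and 36.2%. The difference between P10 and P5 was 11.6 points, 3.47 points without P5 replicate 5, 7.72 without P10 replicate 2 and 17.4 without P10 replicate 4. The Rps6ka4 run (chr19:6904391-6904910, 11 of 12 CpGs) lies over 10 kb from the gene start and went from an early median of 23.96% (20.5% to 42.8%, n = 8) to a late median of 66.8% (48.6% to 77.1%, n = 7), with 35.1%, 45.1%, 32.6% and 23.4% at P5 and 35.3%, 45.4% and 58.5% at P10. Its difference between P10 and P5 was 12.4 points, and 6.32 without P10 replicate 4. Akap5 encodes a scaffold that anchors protein kinase A. The run at its start (chr12:77425810-77426152, 10 of 25 CpGs) was nearly unmethylated early, with a median of 1.33% (0.243% to 4.51%, n = 8). It was at 6.80%, 14.3%, 13.2% and 8.19% at P5, at 11.2%, 20.9% and 18.9% at P10 and at a median of 40.2% late (29.3% to 50%, n = 8).

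**Figure D5:**
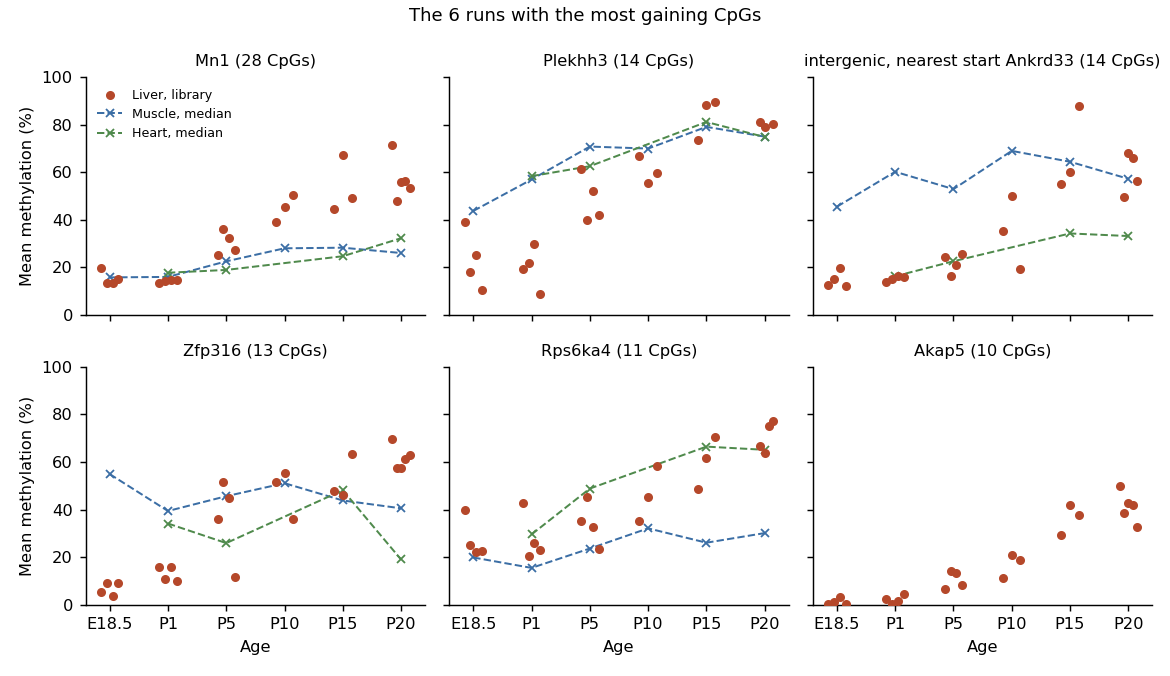
Mean methylation (%, vertical axis) by age in the 6 runs with the most gaining CpGs. Red points are liver libraries, and crosses joined by dashed lines are medians over muscle (blue) and heart (green) libraries at the CpGs of the run measured there. Liver in the Mn1 run goes from 13.4% to 19.8% in the early libraries to 44.5% to 71.6% in the late ones. No CpG of the Akap5 run was in the muscle or heart table.

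Some of these runs also differed with age outside liver. In muscle the Plekhh3 run (10 CpGs) averaged 51.8% ± 9.77 (SD, n = 9) at E18.5 and P1 and 76.7% ± 7.18 (SD, n = 7) at P15 and P20, and in heart (13 CpGs) it averaged 57.8% ± 4.50 (SD, n = 4) at P1 and 77.9% ± 8.77 (SD, n = 9) at P15 and P20. The Rps6ka4 run in heart (11 CpGs) was at 29.6% ± 9.38 (SD, n = 4) at P1 and 69.4% ± 12.9 (SD, n = 9) late, whereas in muscle it was at 18.6% ± 6.55 (SD, n = 9) and 28.5% ± 10.7 (SD, n = 8). The early and late ranges did not overlap in heart for either run, but they did in muscle. For Plekhh3 the margins were small. Its highest early and lowest late libraries were at 61.7% and 63.3% in heart and at 64.98% and 64.4% in muscle. The Mn1 run was at 15.4% ± 1.46 (SD, n = 9) and 27.4% ± 8.72 (SD, n = 8) in muscle, and at 17.8% ± 3.10 (SD, n = 4) and 28.7% ± 7.06 (SD, n = 10) in heart. Its early and late ranges met in both tissues. The highest early and lowest late libraries were at 17.42% and 17.51% in muscle and at 20.93% and 20.90% in heart. The intergenic run nearest to Ankrd33 was at 51.3% ± 11.96 (SD, n = 9) and 62.0% ± 14.7 (SD, n = 8) in muscle (4 CpGs), and at 18.49% ± 5.77 (SD, n = 4) and 35.0% ± 26.3 (SD, n = 8) in heart (10 CpGs). The Zfp316 run was at 39.7% ± 17.9 (SD, n = 8) and 48.5% ± 26.7 (SD, n = 8) in muscle (5 CpGs), and at 32.3% ± 4.88 (SD, n = 4) and 38.5% ± 16.5 (SD, n = 8) in heart (8 CpGs). In both of these runs the late means were higher than the early ones, but the early and late ranges overlapped in muscle and in heart.

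The muscle table held 1107 of the 2183, and heart data covered 1312, with 928 in all 3 tables. Their mean level over muscle libraries ran from 30.99% to 44.7%, with age means of 41.0% at E18.5 and 37.0% at P20, and over heart libraries from 36.6% to 48.6%, with 44.0% at P1 and 44.4% at P20. The muscle library with the lowest mean, replicate 2 at P20, was also the lowest at other CpGs (37.6%) and lacked 51.1% of the values. The median change between early and late ages was -0.346 points in muscle (interquartile range -8.18 to 7.24) and 0.549 points in heart (-9.16 to 9.73). A rise of 30 points or more was seen at 12 gaining CpGs in muscle (1.08%, against 0.259% of eligible CpGs) and at 38 in heart (2.90%, against 0.743%), and a drop of that size at 13 (1.17%, against 0.606%) and 25 (1.91%, against 0.542%).

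At 1105 gaining CpGs tested in muscle, 33 (2.99%) passed the test between early and late ages, against 1.04% of all 45573 CpGs. Of these 21 were higher late (0.456% of all CpGs were) and 12 lower (0.579%). Many CpGs outside the gaining set are near 0% or 100% in muscle. Among CpGs at 20% to 80% there, 30 of 770 gaining CpGs (3.90%) and 2.02% of all passed. On the logit scale none of the 33 calls remained, and the unmoderated model called 11 gaining CpGs. Leaving out 1 of the 17 libraries gave 18 to 31. The count was 18 without E18.5 replicate 9, 21 without P1 replicate 2, 19 without P1 replicate 4 and 20 without P1 replicate 5. In heart 5 of 1306 gaining CpGs (0.383%) passed, against 0.0813% of 52866. Of these 4 were higher late (0.0473% of all CpGs were) and 1 lower (0.034%). Among CpGs at 20% to 80% the shares were 0.418% and 0.172%. None of the gaining CpGs passed in heart on the logit scale, or without any 1 of the P1 libraries (replicates 2, 3, 4 and 5), and 3, 3 and 2 passed without P15 replicate 4, P20 replicate 1 and P20 replicate 3.

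The 5 called in heart, and the muscle calls named here, were picked after their values were seen. Hes1 encodes a repressor in the Notch pathway. At chr16:30121050, the intergenic CpG nearest to it, muscle was at 19.9% ± 9.42 early and 56.1% ± 16.8 late (adjusted p = 0.0232, limma) and heart at 22.2% ± 7.07 and 60.5% ± 8.84 (adjusted p = 0.0545, limma), with liver at 36.7% and 84.7%. Besides this CpG, the heart calls were higher late in St6gal1 (34.6% ± 6.06 to 83.7% ± 11.6), Rps6ka4 (21.3% ± 11.9 to 74.2% ± 16.9) and Pcbp4 (3.04% ± 2.79 to 24.2% ± 5.30) and lower late in Lrrc8d (58.8% ± 11.6 to 27.1% ± 6.58; SD in each case). The rule fixes a rise in liver at every gaining CpG, so any fall in muscle is opposite to liver by construction. Of the muscle calls 12 were lower late, among them CpGs in Lyn and Pecam1, and no muscle call remained on the logit scale. In an exon of Lyn, a kinase of blood cells, muscle fell by 25.4 points (adjusted p = 0.0734, limma) where liver went from 34.0% to 68.3%, and in an intron of Pecam1, a marker of endothelium and platelets, muscle fell by 24.8 points (adjusted p = 0.0930, limma) where liver went from 21.9% to 52.4%.

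Liver and muscle were also compared directly over P5 and P10 by an interaction term at 33592 CpGs in both tables. No CpG passed (background 0%; smallest adjusted p = 0.801, limma). At an unadjusted p under 0.05, 110 of 1102 gaining CpGs (9.98%) had the larger difference in liver, against 3.69% of all, and 4 (0.363%) had the larger one in muscle, against 1.53%. On the logit scale the count of 110 was 50 (4.54%, against 3.62% of all). The median difference between the tissues in the P5 to P10 change was 8.48 points at gaining CpGs and 2.54 points over all. With these numbers of libraries a difference between tissues was therefore not established at any single CpG.

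The level in muscle and heart is set here beside the early and late liver means, which the rule places at least 30 points apart, so the counts are a description. The muscle level was between the early and late liver means at 751 CpGs (67.8%), below the early mean at 268 (24.2%) and above the late mean at 88 (7.95%). The heart level was between them at 1057 (80.6%), below at 169 (12.9%) and above at 86 (6.55%). The median level was 38.2% in muscle (interquartile range 20.5% to 58.8%) and 41.8% in heart (23.7% to 62.5%). Muscle and heart differed by under 20 points at 801 of the 928 CpGs in all 3 tables (86.3%), with r = 0.805 across CpGs, which share libraries and are not independent. Over the 27613 eligible CpGs in all 3 tables the values were 89.5% and r = 0.915. At 126 of these CpGs both were under 20%, and liver there went from a median of 11.9% early to 22.1% at P5, 31.2% at P10 and 47.5% late. At 32 both were at 80% or more, and liver went from 54.0% to 68.0%, 81.8% and 89.7%.

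The annotation of the gaining CpGs is given as a description, without a test. Promoters, taken as 1 kb upstream of a start, held 138 (6.32%, compared with 8.84% of eligible CpGs), exons 430 (19.7% and 20.9%), introns 833 (38.2% and 33.6%) and intergenic DNA 782 (35.8% and 36.6%). Promoters held 11.8% of eligible CpGs that started at or below 70% and 8.56% of those that started at 10% to 60%. Within 1 kb of a start lay 13.1% of gaining CpGs and 17.0% of eligible CpGs. The share was 22.995% for eligible CpGs that started at or below 70% and 15.9% for those that started at 10% to 60%. The median number of CpGs within 200 bases on each side was 9 for gaining and 10 for eligible CpGs, and the median GC content was 52.6% in both. Gaining CpGs in promoters started at a median of 18.3% and those in introns at 28.5%, and the share of the rise reached at P10 was 64.3% ± 11.8 and 70.6% ± 11.1 (SD, n = 3 for both). The same libraries give both shares, and their difference was not tested.

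Short DNA strings known as binding sites of transcription factors were counted on both strands within 100 bases of each CpG, and no string contains another. AGATAA, as bound by GATA factors, was present at 225 gaining CpGs (10.3%) and at 6.997% of eligible CpGs, and GAGGAAGT, as bound by PU.1, a factor of myeloid and B cells, at 93 (4.26%) and 1.38%. With 1 CpG per run, the shares were 10.9% and 7.62% for AGATAA and 3.92% and 1.37% for GAGGAAGT. Among eligible CpGs that started at 10% to 60%, which is nearer to the gaining CpGs in level, AGATAA was present at 9.12% and GAGGAAGT at 1.81%. TGTTTAC (FOXA factors) was present at 1.83% and 2.20%, TTGCNNAA (C/EBP factors) at 5.59% and 7.42%, CAAAGTCCA (HNF4A) at 0.183% and 0.245%, and the CTCF string at 0.275% and 0.375%. These are counts of letters, and binding was not measured. The 4 sequences below are from runs of 4 gaining CpGs, with GAGGAAGT or its reverse complement in capitals. They lie in introns of Slc2a12, Poc1a, Sgk1 and Arap1. These runs were picked after their values were seen, and other runs with the string are not shown.
Slc2a12, chr10:22411306-22411341: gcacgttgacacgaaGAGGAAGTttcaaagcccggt
Poc1a, chr9:106233247-106233288: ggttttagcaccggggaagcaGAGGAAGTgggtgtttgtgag
Sgk1, chr10:21622748-21622799: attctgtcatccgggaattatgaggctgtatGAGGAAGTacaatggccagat
Arap1, chr7:108511663-108511735: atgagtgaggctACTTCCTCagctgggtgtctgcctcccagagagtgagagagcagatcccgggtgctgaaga

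The run in Slc2a12 went from 44.6% ± 10.9 (SD, n = 7) early to 82.7% ± 6.29 (SD, n = 6) late, with muscle and heart medians of 81.9% and 89.8%, and the run in Arap1 from 36.2% ± 10.7 (SD, n = 8) to 83.6% ± 9.25 (SD, n = 6), with 37.5% and 82.6%. The muscle and heart medians were 48.1% (4 CpGs) and 67.5% (2 CpGs) in Poc1a and 59.2% (1 CpG) and 54.2% (3 CpGs) in Sgk1. Gaining CpGs with GAGGAAGT had a median of 54.8% in muscle (57 CpGs) and 61.3% in heart (58), while those without it had 37.6% (1050) and 41.0% (1254). For AGATAA the muscle median was also higher with the string (50.8% and 37.5%), but the heart median was not (40.1% and 42.0%). Eligible CpGs with and without these strings were not compared in muscle or heart. With and without GAGGAAGT, liver medians were 28.02% and 27.1% early and 69.6% and 67.7% late, from the libraries that chose the CpGs. The share of the rise reached at P5 was 35.5% ± 16.1 and 36.9% ± 14.2 (SD, n = 4 for both). The differences between the sets were not tested.

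At least 1 gaining CpG lay in, or within 1 kb upstream of, 758 of the 8846 protein-coding genes with an eligible CpG. Gm20388 had the most, with 49 of 612, but this gene model spans over 4 Mb of chromosome 8 and overlaps other genes; the nearest starts included Gse1 for 14 of the CpGs and Irf8, a transcription factor of myeloid and B cells, for 3. It was followed by Mn1 (29 of 52), Plekhh3 (18 of 21), Zfp316 (14 of 26), Rps6ka4 (11 of 14), Sept9, a septin of the cytoskeleton (11 of 38), Prdm16, a transcription factor of brown fat and stem cells (11 of 82), and Akap5 (10 of 28). The Sept9 and Prdm16 CpGs were all intronic and lay in small groups far from each other within the gene. Sept9 went from 14.4% ± 5.28 (SD, n = 8) early over 24.7% ± 3.10 (SD, n = 4) at P5 and 36.8% ± 8.86 (SD, n = 3) at P10 to 51.2% ± 11.9 (SD, n = 8) late, and Prdm16 from 29.1% ± 6.53 over 46.1% ± 6.09 and 53.5% ± 7.40 to 69.0% ± 13.1.

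Genes of the liver and of other cell types were compared by lists. Of CpGs in or near blood cell genes 10 of 121 gained (8.26%), in 4 of the 17 genes measured, and of those in or near liver transcription factors 23 of 271 (8.49%), in 6 of 34 genes. For fetal liver and growth genes the count was 6 of 117 (5.13%), for hepatocyte function genes 1 of 93 (1.08%), for muscle and heart genes 2 of 194 (1.03%) and for the DNA methylation machinery 0 of 48. The share over all eligible CpGs was 3.21%. The median rise over all CpGs of a list was 4.59 points for blood cell genes, 6.93 for liver transcription factors, 7.47 for fetal liver and growth, -2.88 for hepatocyte function, 6.19 for muscle and heart and 4.62 for the methylation machinery, beside 6.53 over all eligible CpGs. The blood cell and transcription factor counts thus rest on a few genes, and 3 CpGs, in Lyl1 and Nfix, are counted in both.

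Among blood cell genes, 3 CpGs lay in Lyl1, a transcription factor of blood progenitors, 3 each in introns of Flt3 and Kit, receptor kinases of blood progenitors, and 1 upstream of Mpo, a granule enzyme of neutrophils. Flt3 went from 20.7% ± 11.9 (SD, n = 8) early over 44.5% ± 7.97 (SD, n = 4) at P5 and 50.5% ± 18.9 (SD, n = 3) at P10 to 65.0% ± 14.4 (SD, n = 7) late. Kit went from 19.2% ± 13.4 to 61.7% ± 25.6 (SD, n = 5), and Mpo from 23.5% ± 7.18 to 72.9% ± 12.4 (SD, n = 5). The Lyl1 CpGs also lie within the annotated extent of Nfix, a transcription factor gene with 9 gaining CpGs. They were at 4.73% ± 3.56 (SD, n = 8) early, 19.2% ± 8.12 (SD, n = 4) at P5, 15.4% ± 5.25 (SD, n = 2) at P10 and 58.3% ± 12.4 (SD, n = 5) late, so that P5 and P10 differed by less than their spread and most of the rise came after P10.

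Afp encodes the serum protein alpha-fetoprotein of the fetal liver. Its 2 gaining CpGs, 6 bp apart in an intron (chr5:90933947 and chr5:90933953), went from 8.24% ± 2.99 (SD, n = 8) over 21.8% ± 13.1 (SD, n = 4) at P5 and 22.3% ± 12.9 (SD, n = 3) at P10 to 44.1% ± 18.46 (SD, n = 7), with medians of 65.3% in muscle and 45.0% in heart. Zfhx3 and Zhx2 encode transcription factors known to repress Afp, and each had 3 gaining CpGs, at 34.9% ± 10.35 (SD, n = 8) early and 74.9% ± 7.15 (SD, n = 8) late in Zfhx3 and at 18.2% ± 6.42 (SD, n = 7) and 53.6% ± 22.7 (SD, n = 6) in Zhx2. The other transcription factor genes with the most were Nfix (8.62% ± 2.82 to 55.4% ± 14.97), Tbx3, a factor of liver progenitors (5 CpGs, 11.7% ± 3.47 to 54.3% ± 14.5), and Nr2f2, a nuclear receptor (3 CpGs, 12.01% ± 3.30 to 47.2% ± 8.28; SD in each case). The single gaining CpG of the hepatocyte list was in an intron of Fbp1, an enzyme of gluconeogenesis (30.6% ± 11.1 to 72.1% ± 16.05). Sox9, a factor of bile duct cells, had 1 (6.79% ± 4.95 to 39.5% ± 27.5) and Gata4, a factor of heart and liver, had 2 (7.56% ± 6.91 to 43.1% ± 13.3).

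Depth per value is unknown, since the tables hold fractions. The share of missing values stands in for it: at the gaining CpGs it was under 7% in 18 of the 23 liver libraries and 19.1% to 70.9% in the other 5, of which 1 was from E18.5, 1 from P15 and 3 from P20. In the E18.5 library, replicate 14, 21.1% of the values were exactly 0, compared with 1.51% to 5.77% in the other 3. Without this library the choice gave 2079 CpGs, and without P20 replicate 1, which lacked 70.9% of the values, it gave 2088.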

How the data were processed

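The values used are methylation fractions deposited by the authors, the methylated share of the reads at each CpG, shown here as percent. Per the labels and the study's methods, reads were aligned with Bismark 0.7.6 and Bowtie2 to mm9, values under 10 reads were set to missing, and CpGs missing in over 20% of samples or under 10% methylated in all samples were removed. No counts were used, so no binomial interval is given. The tables hold 13 columns that no sample's labels matched, and these were not used; heart at 2 ages, E18.5 and P10, is not analysed here.

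The gaining CpGs, gene lists and tests were chosen with earlier results of these data known. Per the study's methods DNA was taken from each mouse; litters are not given. CpGs were compared with limma 3.58.1 (R 4.3.3) over all autosomal CpGs with at least 2 values at P5 and at P10, at least 5 values on each side in muscle (9 early and 8 late libraries), or at least 3 values at P1 and 5 late in heart (4 and 10 libraries). Calls were made at 0.1 after Benjamini-Hochberg adjustment with a difference over 5 points, or at 0.1 alone for the interaction. The procedure was tested on simulated data. Locus-specific bisulfite sequencing covered 124 CpGs, the nearest 10333 bp from a gaining CpG, so its comparisons were not run.

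The share of the rise reached was, per library, the summed difference from the early mean over the summed rise. Genes and contexts came from GENCODE vM1 on NCBIM37 (mm9), where all gaining CpGs matched a CpG. A distance to a gene start is to the nearest start of any annotated protein-coding transcript, which can lie inside the gene. Named were the 6 runs with the most gaining CpGs, the 8 genes with the most, up to 4 genes per list, the 3 CpGs on each side of the threshold, and members past the P5 to P10 test in the fit of those ages, of which there were none. CpGs called in the fit of all liver libraries, in muscle or in heart, and runs with the PU.1 string, were named after their values were seen. Sequences of runs in untranslated regions are not printed. One CpG past the test in the fit of all liver libraries is not reported here. Alternatives covered the threshold, missing values, the scale, the model, each library left out and the replicate number as a block; a scale set by left-out libraries was added after seeing the data.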

Additional observations from a re-analysis of the deposited data

Results flagged for a closer look

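Of 78 groups of 4 to 10 libraries examined, 5 held a library far from the others by Dixon's ratio, and chance flags about 1 in 20 groups. In the Rps6ka4 run, liver E18.5 replicate 1 stood at 39.9% while the nearest of the other 3 libraries was at 25.1%. In the same run, muscle P10 replicate 3 stood at 9.88% with the nearest other at 30.5%, and 1 heart library at P15 stood at 98.9% with the nearest other at 68.6%. In the Mn1 run, 1 muscle library at E18.5 stood at 13.4% with the nearest other at 15.7%. In the run nearest to Ankrd33, 1 heart library at P1 stood at 27.0% with the nearest other at 16.4%. The mean level over all gaining CpGs showed no such library in any tissue and age with 4 or 5 libraries.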

How the results depend on the processing

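With a rise of 25 points as the threshold 4023 CpGs were chosen, with 40 points 663, and among the 5990 CpGs with a value in all 16 libraries 125; leaving out 1 library gave 1573 to 2432. Another gaining CpG was found within 50, 500 and 1000 bp for 46.5%, 53.1% and 53.6%. The share of the rise reached was 36.0% to 39.6% at P5 and 66.1% to 70.5% at P10 with 1 library left out, and 37.4% ± 17.8 (SD, n = 4) and 77.2% ± 12.6 (SD, n = 3) on the scale set by left-out libraries, which was chosen after seeing the data.

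Between P5 and P10 in liver, the unmoderated model called 1 CpG, and the fit of all 23 libraries 19, of which 7 were gaining CpGs. For muscle, the logit scale called 35 CpGs (0 gaining), the unmoderated model 187 (11), CpGs complete in every library 73 of 6607 (8 of 163 gaining), and single libraries left out 258 to 445 (18 to 31). For heart, the logit scale called 2 (0), complete CpGs 2 of 3802 (0 of 65 gaining), and single libraries left out 6 to 73 (0 to 7). The causes were not tested. Gaining CpGs higher at P10 in liver at an unadjusted p under 0.05 went from 402 to 244 on the logit scale (11.2%, against 6.59% of all CpGs) and 265 in the unmoderated model (12.2%, against 5.33%). Those with the larger difference in liver than in muscle went from 110 to 50 on the logit scale (4.54%, against 3.62%).

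With the replicate number as a replicate block, muscle gave 21 calls (2 gaining), heart 0 (0) and liver 0 (0), with 262 gaining CpGs (13.5%, against 3.88% of all) higher at P10 at an unadjusted p under 0.05, and 48 (4.36%, against 2.22%) with the larger difference in liver than in muscle. Libraries of the same number did not deviate together (r = 0.00708 and 0.00716 for 2 pairs in liver, -0.112 to 0.0802 for 14 in muscle and -0.0888 to 0.0629 for 13 in heart), so the numbers were not taken to pair the libraries. Locus-specific alternatives were not run, since no gaining CpG was covered.

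Depth per value is unknown, so a missing or extreme value in a shallow library cannot be weighed. With 4 and 3 liver libraries at P5 and P10, the moderated model called no single CpG.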
